A study of Mus musculus with 6 samples.

Results

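The glycosyltransferase genes of mucin and glycan synthesis were compared between control colon and colon deficient for HDAC1/2 in intestinal epithelial cells (IEC). The members are the genes on the array whose symbols begin with St3gal, St6gal, St8sia, Fut, B3gnt, B3galt, B4galt, B4galnt, Galnt, Gcnt or C1galt1, or with Mgat followed by a number from 1 to 5, and whose probe sets carry that symbol alone. They came to 87 of the 18193 genes named in this way and to 183 of 45037 probe sets. Each gene is described by its brightest probe set, which is the one with the highest mean over the 6 arrays, and the other probe sets of the genes described one by one are given beside it. The list is one of symbols, and it therefore includes the pseudogene Fut4-ps1. Total RNA of colon from 3 control and 3 deficient mice, 4 months old by the study's text, was hybridized to Affymetrix GeneChip mouse arrays. In deficient mice, floxed Hdac1 and Hdac2 alleles were recombined by a Cre transgene under the villin promoter, which is active in IEC and not in the other cells of the colon wall, and controls are labelled wild type. All mice were untreated and received a normal diet. The values are RMA log2 signals, in which 1 unit is a 2-fold difference, and each difference is deficient minus control. The probe sets were tested together with limma, and a gene rose or fell where the adjusted p (Benjamini-Hochberg over all 45037 probe sets) was under 0.05.

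Glycosyltransferases of the Golgi build sugar chains one residue at a time on serine or threonine (O-glycans), on asparagine (N-glycans) and on lipids. In the mucus of the colon most of the mass of the mucin Muc2 is O-glycan: a first N-acetylgalactosamine is added by the Galnt enzymes, a core is built on it by C1galt1, B3gnt6 or the Gcnt enzymes, the chain is extended with galactose and N-acetylglucosamine, and fucose, sialic acid or a further N-acetylgalactosamine cap its ends. The end groups decide which bacteria and lectins can bind. N-glycans share the extending and capping enzymes and are branched by the Mgat enzymes.

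Between HDAC1/2 deficient and control colon 6 members differed more than 2-fold. Of these 5 fell (5.75% of members, beside 1.82% of all genes) and 1 rose (1.15%, beside 2.25%). St3gal4, an alpha-2,3-sialyltransferase of lactosamine chain ends, fell 13.5-fold in signal, and the Lewis x fucosyltransferase genes Fut9 and Fut4 fell 3.06-fold and 2.23-fold. Mgat4c, a homologue of the N-glycan branching enzyme Mgat4a, rose 3.13-fold, whereas Mgat4a itself fell 2.22-fold. B3gnt7, which extends chains with N-acetylglucosamine, fell 2.04-fold. All 3 measured genes of the B4galnt family, which add N-acetylgalactosamine to chain ends, rose. The genes that start O-glycans, the Galnt family, lay between log2 differences of -0.55 and 0.79 by their brightest probe sets, with a median of -0.028. A dimmer probe set of Galnt3 rose by 0.93.

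Of the 87 members, 36 fell, which is 41.4% of them, and 28.4% of all genes fell in this comparison. Another 17 members rose, or 19.5%, beside 21.9% of all genes, and 34 passed in neither direction. The counts by role and by list below stand beside the same shares of all genes, 28.4% that fell and 21.9% that rose. Without the 3 members whose probe sets passed in opposite directions (C1galt1, Fut8 and St6galnac4), 33 of 84 fell, or 39.3%. Over all 183 probe sets of the members, and not only the brightest, 28.4% fell and 22.4% rose. The same shares over all probe sets of the array were not counted. Falls of more than 2-fold were made by 5 members (St3gal4, Fut9, Fut4, Mgat4a and B3gnt7), or 5.75%, beside 1.82% of all genes. The 1 member with a rise of more than 2-fold, Mgat4c, is 1.15% of them, beside 2.25% of all genes. The 3 control and 3 deficient arrays did not overlap in 60 members (69.0%), beside 60.9% of all genes. The median log2 difference was -0.077 over the members and -0.022 over all genes, and the median absolute difference was 0.23 and 0.17. Members were brighter than genes in general: 68 were at or above the median of all values, and of these 48.5% fell and 23.5% rose, beside 36.5% and 28.0% of the 12290 genes as bright. The groups did not overlap in 80.9% of these 68 members, beside 76.2% of the genes as bright, and the median absolute difference was 0.28 and 0.24. Of the 19 dimmer members 3 fell, 1 rose and 15 did not pass.

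**Figure D1:**
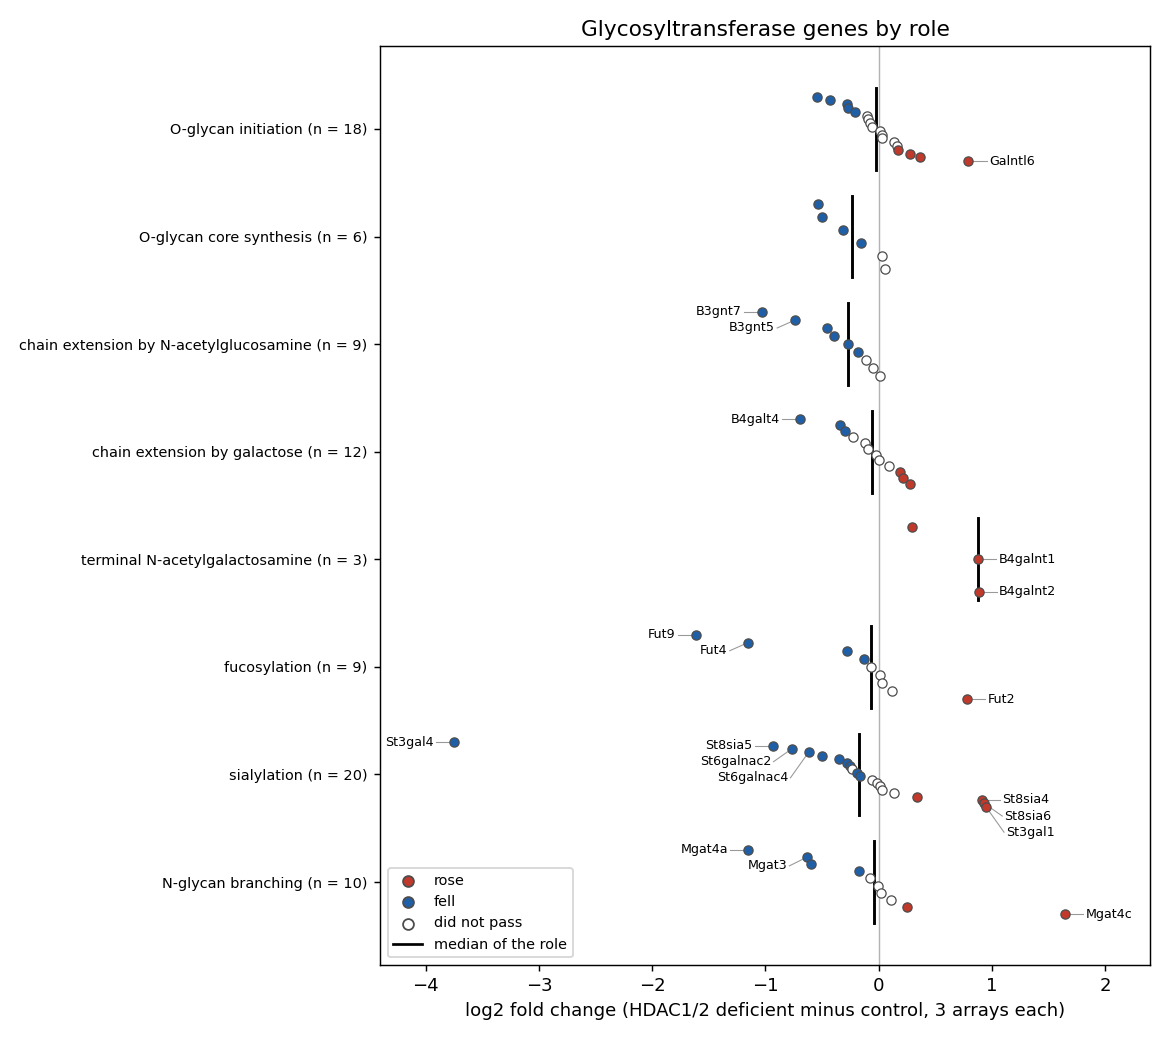
Log2 difference between HDAC1/2 deficient and control colon (3 arrays each) for each of the 87 glycosyltransferase genes, by its brightest probe set, in 8 rows by role. Filled points are genes with a limma adjusted p under 0.05 (red rose, blue fell), open points did not, bars are the median of each role, and points are spread within a row only for legibility. St3gal4 at -3.75 stands far from the rest, and the B3gnt row holds no gene that rose while the B4galnt row holds none that fell.

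St3gal4 had log2 values of 10.44, 10.45 and 10.49 on the control arrays and 6.42, 6.95 and 6.76 on the deficient arrays. Every deficient array was more than 3 log2 units below every control array, and no other member changed as much (log2 difference -3.75, standard error 0.12, limma adjusted p = 6.14e-07). The array holds 1 probe set for this gene, so no second measurement was at hand. Its deficient values lie near the median of all values, where RMA compresses differences, so the fold is that of the signals. Fut9 had values of 10.56, 10.41 and 10.54 in control and 8.96, 8.79 and 8.92 in deficient colon (log2 difference -1.62, standard error 0.064, limma adjusted p = 1.65e-06). Its other probe sets fell too, by 0.99 and 0.45 on the log2 scale. Fut4 had values of 11.17, 11.25 and 11.16 in control and 10.01, 10.02 and 10.10 in deficient colon (log2 difference -1.15, standard error 0.047, limma adjusted p = 1.94e-06). Its dimmer probe set fell by 0.45. For both fucosyltransferase genes the lowest control array stood more than 1 log2 unit above the highest deficient array.

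The promoters of the members past a 2-fold difference in any probe set are shown because HDAC1 and HDAC2 act on chromatin, and these are the stretches just before the starts of the genes that moved most. Of 7 such members, St3gal4, Fut4, B3gnt7 and B4galnt2 have a single start in the RefSeq table used here (GRCm38.p6), and the 250 bases before it are printed 5' to 3' on the gene's strand. Capitals mark the GC box GGGCGG or its reverse complement CCGCCC, a motif bound by Sp-family factors. These windows are chr9:35116865-35117114 (minus strand) for St3gal4, chr9:14752123-14752372 (minus) for Fut4, chr1:86302971-86303220 (plus) for B3gnt7 and chr11:95914872-95915121 (minus) for B4galnt2.
St3gal4: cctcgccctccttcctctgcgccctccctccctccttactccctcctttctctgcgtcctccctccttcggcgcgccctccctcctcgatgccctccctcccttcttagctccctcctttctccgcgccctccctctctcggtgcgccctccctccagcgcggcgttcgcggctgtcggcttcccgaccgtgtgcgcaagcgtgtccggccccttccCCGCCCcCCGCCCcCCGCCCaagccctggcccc
Fut4: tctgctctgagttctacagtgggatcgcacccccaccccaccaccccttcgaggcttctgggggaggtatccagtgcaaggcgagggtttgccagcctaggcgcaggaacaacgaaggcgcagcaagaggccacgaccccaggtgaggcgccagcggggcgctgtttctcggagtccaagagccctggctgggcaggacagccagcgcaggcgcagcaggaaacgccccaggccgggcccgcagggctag
B3gnt7: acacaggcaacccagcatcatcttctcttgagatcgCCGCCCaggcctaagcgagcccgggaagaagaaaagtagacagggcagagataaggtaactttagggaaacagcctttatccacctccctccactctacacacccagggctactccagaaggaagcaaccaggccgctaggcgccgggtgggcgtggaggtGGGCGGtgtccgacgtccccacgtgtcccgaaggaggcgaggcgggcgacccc
B4galnt2: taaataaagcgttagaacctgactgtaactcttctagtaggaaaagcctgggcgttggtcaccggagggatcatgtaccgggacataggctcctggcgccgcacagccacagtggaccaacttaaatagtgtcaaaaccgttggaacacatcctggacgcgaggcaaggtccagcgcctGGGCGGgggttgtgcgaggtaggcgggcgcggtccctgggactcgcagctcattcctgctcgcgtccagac
The RefSeq gene record of B4galnt2 reaches to base 95914960, so that 89 bases of its window, its GC box included, lie inside that record, while the other 3 windows end where their genes begin. The St3gal4 window holds 3 GC boxes in close succession near its 3' end, that of B3gnt7 holds 2, that of B4galnt2 holds 1 and that of Fut4 holds none. St3gal4 also has the highest GC content of the 4, at 72.8%, and 25 CG dinucleotides, against 16 to 18 in the others. Over 88 windows of the 63 members in the table, 44 (50%) hold a GC box, beside 48.4% of 18010 windows of genes named on the array and 32.7% of 32851 windows of all genes. The shares were 51.4% of 37 windows of members that fell, 37.5% of 16 of members that rose and 54.3% of 35 of the others. They count windows and not genes: the windows came from 24, 11 and 28 members, so members with several starts weigh more. Calls follow the brightest probe set, and those that fell include C1galt1, Fut8 and St6galnac4, whose probe sets disagreed. The GC boxes are matches of letters and say nothing about binding. Mgat4a and Mgat4c have 2 and 4 starts in the table, and Fut9 is named only.

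**Figure D2:**
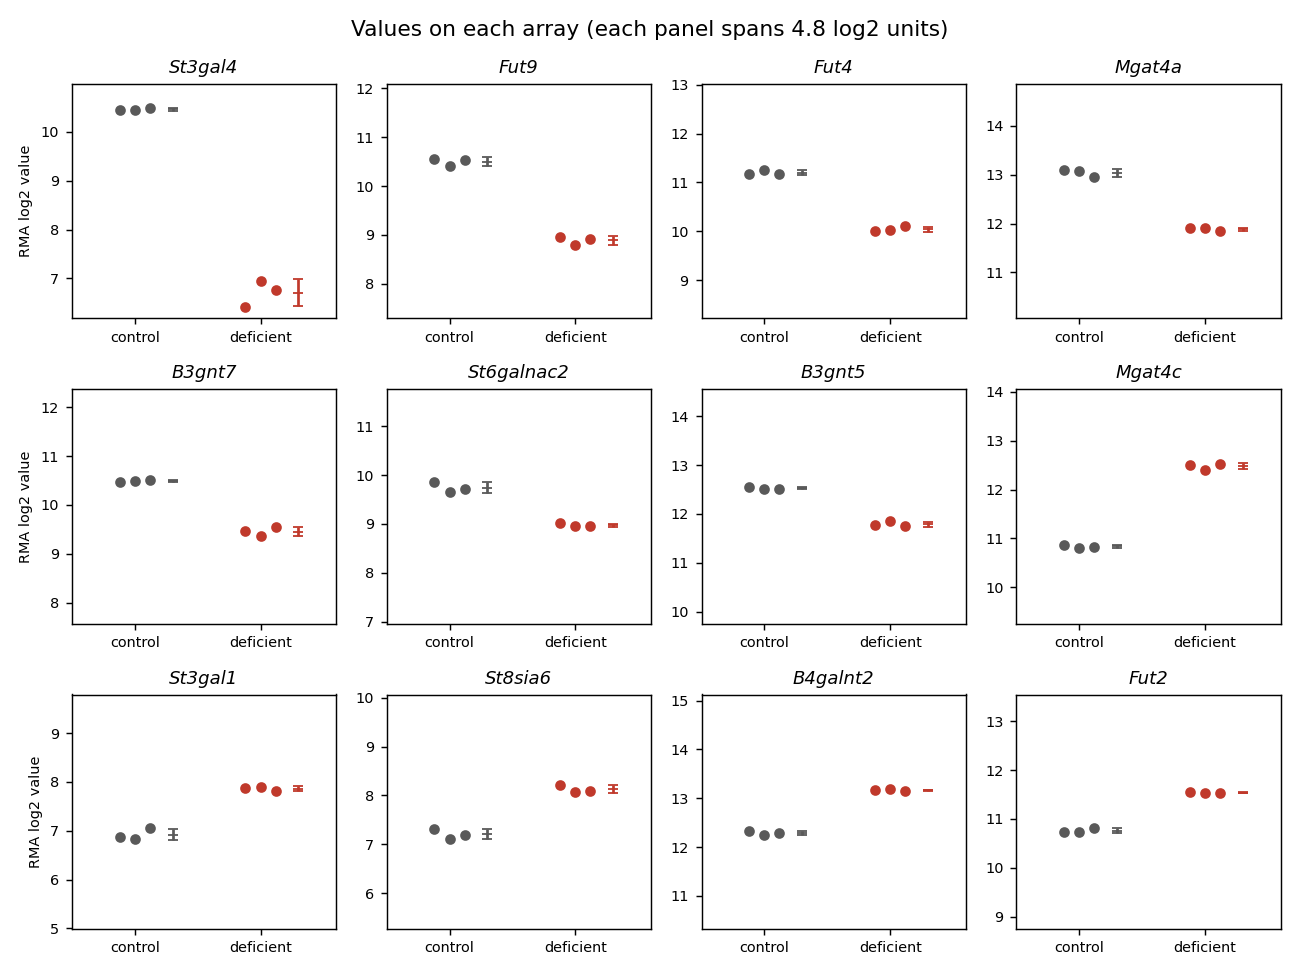
RMA log2 values of 12 glycosyltransferase genes on the 3 control arrays (grey) and the 3 HDAC1/2 deficient arrays (red), with the mean and SD of each group beside the points. Each panel spans the same number of log2 units, so distances can be compared between panels while levels cannot, since probe sets differ in brightness. In all 12 panels the control and deficient points stay apart, and St3gal4 shows the widest gap. These panels do not stand for all 87 members. Such separation was found in 69.0% of the members and in 60.9% of the genes on the array. By itself it therefore does not set a gene apart.

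O-glycan initiation showed changes in both directions, most of them small. Of 18 Galnt genes, whose enzymes add the first N-acetylgalactosamine, 4 rose, 5 fell and 9 did not pass, with a median log2 difference of -0.028. These are 22.2% and 27.8%, near the 21.9% and 28.4% of all genes. The median absolute difference was 0.17, as over all genes. Galntl6 rose most, from 6.72, 6.59 and 6.69 in control to 7.57, 7.32 and 7.49 in deficient colon (0.79, limma adjusted p = 8.56e-05), and its second probe set rose by 0.68. The groups were clearly apart although the signal was dim. Galnt12 (0.36, adjusted p = 2.37e-04), which is among the goblet cell markers, and Galnt3 (0.28, adjusted p = 0.00141), which also glycosylates Fgf23, rose as well. Both dimmer probe sets of Galnt3 rose, by 0.31 and 0.93, so the size of that rise depends on the probe set. Galnt18 (-0.55, adjusted p = 0.00206), Galnt11 (-0.43, adjusted p = 9.03e-04) and Galnt4 (-0.27, adjusted p = 0.00205), which adds to peptides that already carry a sugar, fell. The second probe set of Galnt11 did not pass (0.016), and of the others of Galnt4 1 fell by 0.40 and 1 did not pass (0.019). Galnt7 and Galnt2 did not pass (-0.063 and 0.033), although 1 dimmer probe set of each rose, by 0.20 and 0.23, nor did Galnt5 and Galnt10 (0.0082 and 0.027).

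O-glycan core synthesis, taken here as the C1galt1 and Gcnt genes, had 4 falls and no rise among 6 genes, with a median of -0.23. Roles follow the gene symbols, so B3gnt6, which also builds a core, is counted with the other B3gnt genes. C1galt1, which makes core 1 by adding galactose to the first sugar, had values of 11.89, 11.87 and 11.88 in control and 11.58, 11.50 and 11.62 in deficient colon (-0.31, limma adjusted p = 0.00114). Its direction depends on the probe set: the dimmest of its 3 probe sets rose by 0.23 (adjusted p = 0.00972) and the other did not pass (0.10, adjusted p = 0.180). The chaperone of that enzyme, C1galt1c1 (Cosmc), fell by 0.16 (adjusted p = 0.0187), and its second probe set did not pass (0.11). Gcnt1, a core 2 enzyme, fell by 0.50 (adjusted p = 4.46e-04) on its brightest probe set, and the other did not pass (0.066). Gcnt3, the mucin-type enzyme that makes core 2 and core 4, did not pass on its brightest probe set (0.054, adjusted p = 0.388), and its other 2 probe sets rose by 0.24 and 0.23. Gcnt2, which places the branches of the I blood group, fell by 0.54 on 1 of 8 probe sets (adjusted p = 8.98e-05), while the other 7 lay between -0.092 and 0.061 and none passed. Gcnt4 was not analysed here.

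In chain extension by N-acetylglucosamine every gene that passed the test fell. Of 9 B3gnt genes 6 fell, none rose and 3 did not pass, with a median of -0.27. B3gnt7, an enzyme of keratan sulfate and lactosamine chains, had values of 10.46, 10.49 and 10.51 in control and 9.46, 9.36 and 9.55 in deficient colon (-1.03, standard error 0.056, limma adjusted p = 7.12e-06). B3gnt5, which starts the lacto-series glycolipids, went from 12.54, 12.52 and 12.50 to 11.76, 11.84 and 11.75 (-0.74, limma adjusted p = 1.11e-05). In both the deficient arrays lay together well below the control arrays, and the dimmer probe set of B3gnt5 fell by 0.45. B3gnt6, the core 3 synthase of colonic mucins, fell from 8.01 ± 0.068 to 7.56 ± 0.064 (SD, n = 3 each; -0.46, limma adjusted p = 3.63e-04). B3gnt2, the main enzyme of poly-lactosamine chains, and its partner B3gnt8 fell by 0.40 and 0.27, and the second probe set of B3gnt2 also fell by 0.27. B3gnt9 fell by 0.18 with an adjusted p near the threshold (0.0247). B3gnt3 (-0.11), B3gnt4 (-0.050) and B3gntl1 (0.011) did not pass.

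Chain extension by galactose moved both ways, with 3 rises, 3 falls and 6 genes that did not pass among 12. That is 25% each, near the 21.9% and 28.4% of all genes. B4galt4, a lactosamine and keratan sulfate enzyme, had values of 9.24, 9.15 and 9.22 in control and 8.52, 8.53 and 8.49 in deficient colon (-0.69, limma adjusted p = 1.45e-05). It was the furthest of this group from 0. B4galt1, the most widely used of these enzymes, fell by 0.30 (adjusted p = 5.81e-04), and B3galt4, the GM1 ganglioside synthase, by 0.35 (adjusted p = 5.20e-04). B3galt5, which makes the type 1 chains of the gut, rose by 0.19 (adjusted p = 0.00845), and all 4 of its probe sets rose, by up to 0.32. B4galt6, a lactosylceramide synthase, and B4galt7, which builds the linker of proteoglycans, rose by 0.27 and 0.22. Of the other probe sets 1 of 3 of B4galt6 rose (0.14), and that of B4galt7 did not pass (0.085). B3galt6, the enzyme of the next step of that linker, did not pass on its brightest probe set (0.0071), but both others fell, by 0.65 and 0.44.

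Terminal N-acetylgalactosamine enzymes rose in all 3 measured cases. B4galnt2, which makes the Sda antigen on the gut epithelium and sets which mouse strains bind the Dolichos lectin there, had values of 12.32, 12.24 and 12.28 in control and 13.16, 13.18 and 13.15 in deficient colon (0.88, standard error 0.041, limma adjusted p = 3.38e-06). Of its other probe sets, the 2 brighter ones rose by 1.21 and 1.00, and the dimmest did not pass (-0.079). B4galnt1, the GM2 and GD2 ganglioside synthase, had values of 7.54, 7.46 and 7.38 in control and 8.34, 8.36 and 8.33 in deficient colon (0.88, limma adjusted p = 9.75e-06). In neither gene did the groups overlap, and the deficient arrays lay within 0.03 of each other. The second probe set of B4galnt1 rose by 0.17. B4galnt4 rose less, by 0.29 (adjusted p = 0.0130).

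Fucosylation genes moved in both directions, with 1 rise, 4 falls and 4 that did not pass among 9 by the brightest probe sets. Beside the falls of Fut9 and Fut4, which attach fucose in the alpha-1,3 linkage of Lewis x, Fut2 rose. Fut2, the secretor gene that makes alpha-1,2-linked fucose of H antigen on the gut epithelium, had values of 10.73, 10.73 and 10.82 in control and 11.55, 11.53 and 11.54 in deficient colon (0.78, standard error 0.043, limma adjusted p = 7.76e-06). The groups were apart, and the second probe set rose by 0.46. Fut1, the other alpha-1,2 enzyme, did not pass (0.014, adjusted p = 0.886). Fut8, which places the core fucose of N-glycans, fell by 0.13 close to the threshold (adjusted p = 0.0398), while another of its 3 probe sets rose by 0.20 (adjusted p = 0.0246) and the remaining one did not pass (-0.048). Fut10 fell by 0.28 (adjusted p = 0.00323), and its other probe sets did not pass (0.029 and -0.11). Fut7, which makes sialyl Lewis x on leukocytes, had means of 7.49 ± 0.074 on the control and 7.60 ± 0.060 on the deficient arrays (SD over 3 arrays) and did not pass.

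Sialylation was the largest role, with 20 genes of which 10 fell (9 without St6galnac4), 4 rose and 6 did not pass (median -0.18). Among 6 alpha-2,3-sialyltransferase genes St3gal4 stood beside small falls of St3gal6 (-0.25, adjusted p = 0.00213) and St3gal3 (-0.19, adjusted p = 0.00789), which act on the same kind of lactosamine chain ends. The second probe set of St3gal3 did not pass (-0.038). Of the 5 probe sets of St3gal6 another fell by 0.57 and 3 did not pass. St3gal1, which sialylates the galactose of core 1 O-glycans, rose from 6.86, 6.84 and 7.05 to 7.88, 7.89 and 7.81 (0.95, standard error 0.064, limma adjusted p = 2.08e-05), and its second probe set rose by 0.24. It was the only St3gal gene that rose, and its groups did not overlap. St3gal2, a second enzyme of core 1, did not pass (-0.23, adjusted p = 0.0563), although 1 of its dimmer probe sets fell by 0.25.

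Among 8 alpha-2,6-sialyltransferase genes 5 fell by their brightest probe sets, none rose and 3 did not pass, and without St6galnac4, described last, 4 of 7 fell. St6galnac2, which sialylates the first N-acetylgalactosamine of O-glycans, had values of 9.86, 9.65 and 9.72 in control and 9.01, 8.97 and 8.95 in deficient colon (-0.77, limma adjusted p = 4.06e-05). Its dimmer probe set did not pass (-0.18). St6galnac6, of gangliosides and Lewis chains, and St6gal1, the main alpha-2,6 enzyme of N-glycans, fell by 0.50 (adjusted p = 4.13e-05) and by 0.28 (adjusted p = 0.00139), but the second probe set of St6gal1 did not pass (-0.0048). St6galnac1, the enzyme of the sialyl-Tn antigen, did not pass (0.0081, adjusted p = 0.911). For St6galnac4 the probe sets disagreed: the brightest went from 10.17, 10.11 and 10.13 in control to 9.52, 9.45 and 9.58 in deficient colon (-0.62, limma adjusted p = 4.14e-05), and the other from 8.42, 8.32 and 8.40 to 9.03, 9.07 and 9.07 (0.67, limma adjusted p = 1.99e-05). Neither probe set overlapped between the groups, and no direction can be given for this gene.

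Of 6 alpha-2,8-sialyltransferase genes 3 rose and 2 fell, and their median absolute difference was 0.62, beside 0.23 over all members. St8sia6, which adds a second sialic acid to O-glycans, rose from 7.31, 7.11 and 7.18 to 8.22, 8.08 and 8.10 (0.93, limma adjusted p = 2.50e-05), and its other 2 probe sets rose by 0.32 and 0.49. St8sia4, a polysialic acid synthase, rose from 8.04, 7.92 and 7.91 to 8.92, 8.81 and 8.87 (0.91, limma adjusted p = 9.77e-06), while its dimmer probe set did not pass (0.065). St8sia5, a ganglioside enzyme with 1 probe set, fell from 8.45, 8.52 and 8.48 to 7.38, 7.68 and 7.58 (-0.93, limma adjusted p = 5.03e-05). The groups of all 3 genes were apart by more than 0.6 log2 units. St8sia1, the GD3 ganglioside synthase, rose by 0.34 on its brightest probe set (limma adjusted p = 0.00845) and by 0.39 and 0.51 on the others. All of its probe sets were dim, below the median of all values.

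N-glycan branching held the largest rise of the 87 members, and 2 genes rose, 4 fell and 4 did not pass among 10. Mgat4c had values of 10.86, 10.81 and 10.83 in control and 12.50, 12.40 and 12.53 in deficient colon on its 1 probe set (1.64, standard error 0.048, limma adjusted p = 3.85e-07). Mgat4a, which adds the beta-1,4-linked branch, had values of 13.09, 13.08 and 12.95 in control and 11.90, 11.90 and 11.85 in deficient colon (-1.15, standard error 0.052, limma adjusted p = 2.96e-06), and its dimmer probe set fell by 0.41. The 2 genes thus moved in opposite directions with no overlap in either. Mgat4b, the second enzyme of that branch, fell by 0.17 (adjusted p = 0.0128). Mgat5, which adds the beta-1,6 branch, fell by 0.60 on both of its bright probe sets (adjusted p = 1.68e-05 on the brightest), and Mgat3, which adds the bisecting residue, fell by 0.63 (adjusted p = 1.87e-05). The remaining dim probe sets did not pass, at -0.078 for Mgat5 and at -0.079 and -0.097 for Mgat3. Of the enzymes that begin complex N-glycans, Mgat1 did not pass (0.11, adjusted p = 0.0872) and Mgat2 was at 0.25 (limma adjusted p = 0.0159). The limma call of Mgat2 was lost without control replicate 2 or without deficient replicate 1 or 3 (adjusted p from 0.0505 to 0.0571), and its second probe set did not pass (0.13).

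Probe sets of one gene can bind different transcripts or ends of a transcript, so they were compared within genes. Of the 87 members 57 had more than 1 probe set. Among the 37 of these that rose or fell, 20 had another probe set called in the same direction and 3 (C1galt1, Fut8 and St6galnac4) had one called in the opposite direction. Another 7 members that did not pass had a dimmer probe set that did (B3galt2, B3galt6, Gcnt3, Galnt2, Galnt7, St3gal2 and St6galnac3). Over the 96 probe sets other than the brightest, 24 rose, 16 fell and 56 did not pass, which differs from the balance over the 87 brightest, where falls outnumbered rises. The dimmer probe sets of other genes were not counted, so this difference cannot be ascribed to the members. In the falls past 2-fold measured by more than 1 probe set the direction was shared: all 3 of Fut9 and both of Fut4 and Mgat4a fell, although the dimmer ones by less.

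**Figure D3:**
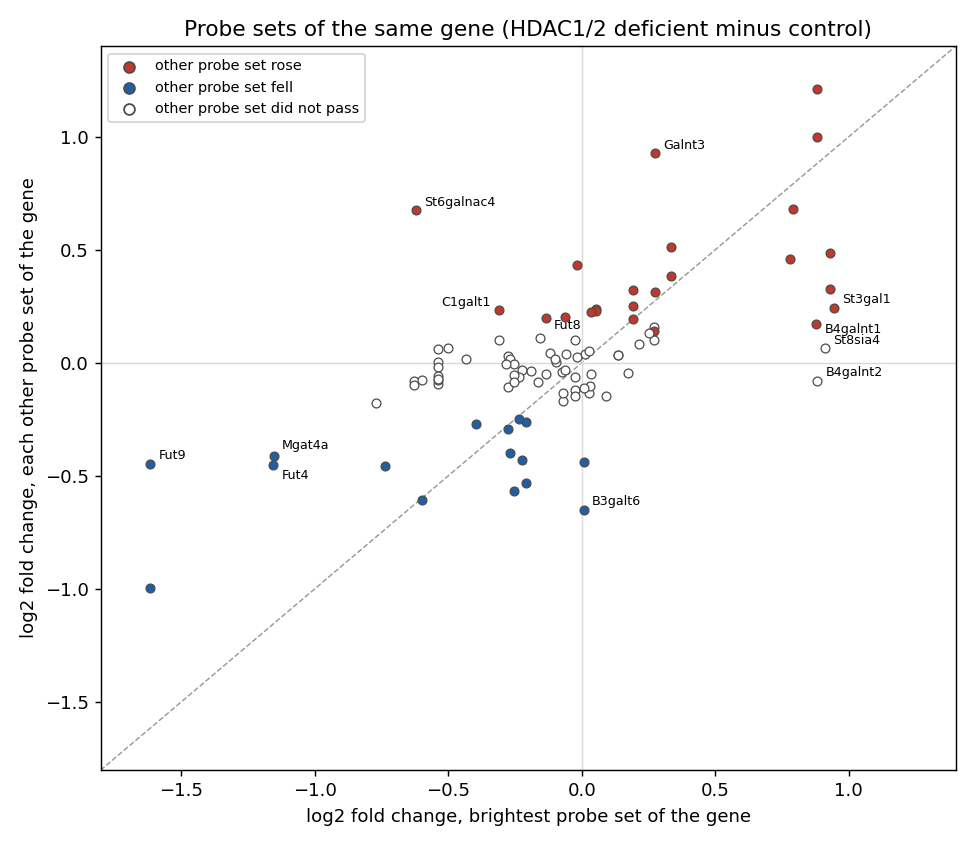
Log2 difference of each of the 96 other probe sets against that of the brightest probe set of the same gene, for the 57 glycosyltransferase genes with more than 1; colour shows the call of the other probe set (limma, adjusted p under 0.05) and the dashed line marks equality. Points near the horizontal line at 0 are probe sets that did not follow the brightest one, and St6galnac4 at -0.62 and 0.67 lies in the opposite quadrant.

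Genes around these enzymes were counted from lists of the pathway. Of 11 glycan sulfotransferases 6 fell, 1 rose and 4 did not pass (median -0.19), led by Chst4 (10.38 ± 0.029 to 9.15 ± 0.037, SD, n = 3 each; -1.22, limma adjusted p = 8.68e-07), which sulfates N-acetylglucosamine, and Gal3st2 (-0.93), which sulfates galactose. Of 7 sialidases, sialic acid esterases and other enzymes of sialic acid turnover 4 fell and 2 rose, the largest being Npl (0.88), which cleaves free sialic acid, and the sialidase gene Neu2 (-0.79). Of 13 Golgi nucleotide sugar transporters 6 fell and 2 rose, with Slc35d1 at 0.77 and Slc35d3 at -0.52, and the CMP-sialic acid transporter gene Slc35a1 fell by 0.29. Nucleotide sugar synthesis was balanced, with 10 rises and 11 falls of 26, the largest being Gmppb (0.79), of GDP-mannose synthesis, and the fucose kinase gene Fcsk (-0.61). Gne, the first enzyme of sialic acid synthesis, fell by 0.58.

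N-glycan assembly and trimming had 11 rises and 4 falls among 29 genes (median 0.071), led by Alg13 (1.12) and Alg8 (0.64), which add sugars to the lipid-linked precursor. Of 21 other glycosyltransferases 5 rose and 8 fell, with Ugcg, the glucosylceramide synthase, at -0.54 and A4galt, the Gb3 synthase, at -0.47. Among 10 mucins, the proteins that carry most of these O-glycans, 2 rose and 2 fell. The membrane mucins Muc4 (8.92 ± 0.23 to 11.40 ± 0.13, SD, n = 3 each; 2.47, limma adjusted p = 3.80e-06) and Muc1 (0.64) rose, and the membrane mucins Muc3 (-0.35) and Muc13 (-0.19) fell. Muc2, the secreted mucin of goblet cells, did not pass (14.51 ± 0.012 to 14.60 ± 0.0035, SD, n = 3 each; 0.085, limma adjusted p = 0.119), at a level close to the highest value on any array (14.85), where little room is left to measure a rise.

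**Figure D4:**
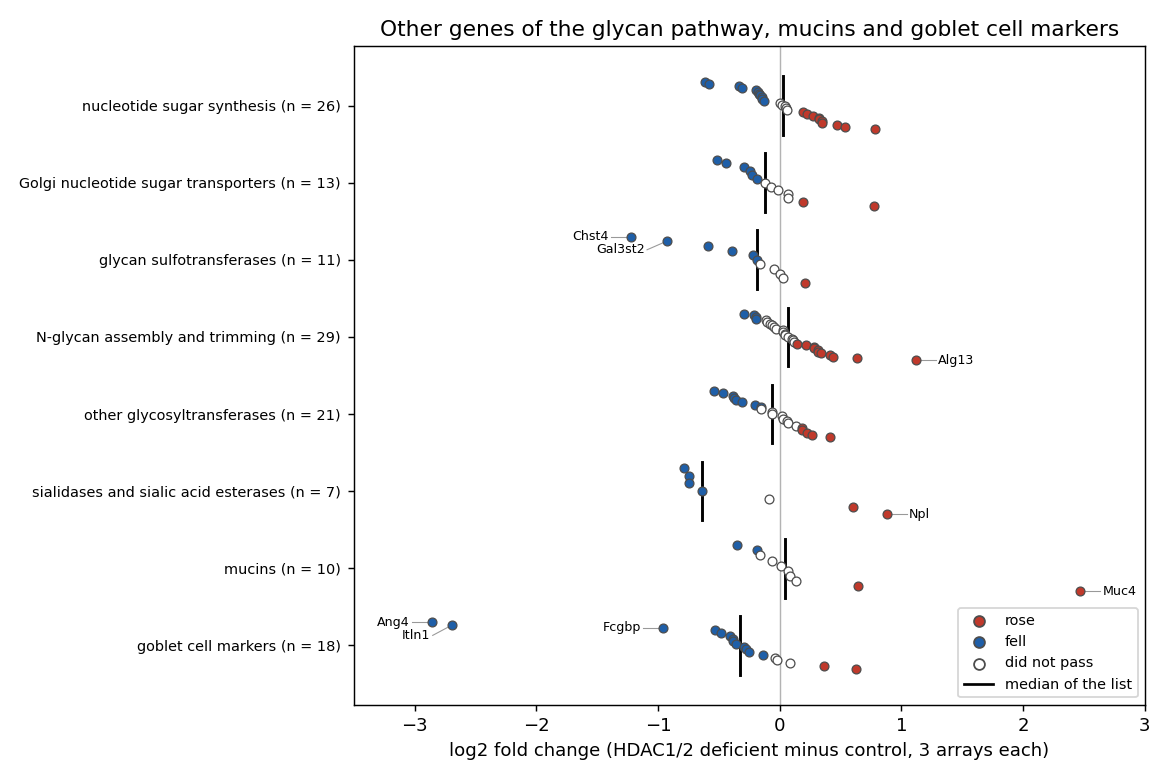
Log2 difference (HDAC1/2 deficient minus control, 3 arrays each) of the genes of 8 lists around the glycosyltransferases, drawn as in the plot by role: red rose, blue fell, open did not pass (limma, adjusted p under 0.05), bars are list medians. Sulfotransferases and goblet cell markers lie mostly below 0, and Muc4 stands apart at 2.47.

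The arrays measured whole colon RNA, in which fewer cells of a type and less RNA per cell cannot be told apart, and markers of several cell types moved with the members. Of 18 goblet cell markers 13 fell, 2 rose and 3 did not pass, with a median of -0.32. Their mean level was 12.18 to 12.20 on control and 11.68 to 11.70 on deficient arrays. Ang4 (-2.86) and Itln1 (-2.69) fell most, Spdef (0.63) and the member Galnt12 (0.36) rose, and Muc2, Zg16 and Agr2 did not pass. Colonocyte markers had 4 falls and 2 rises of 9, with a median of -0.068 (13.01 to 13.05 against 12.65 to 12.68). Slc20a1 (-1.81) and Scnn1g (-1.71) fell most, Krt20 (0.67) and Car1 (0.57) rose, and Car2, Car4 and Aqp8 did not pass. General epithelial markers had 3 rises and 2 falls of 9 (Elf3 -0.52, Vil1 0.35; 13.15 to 13.16 against 13.14 to 13.15). Small intestinal enterocyte markers had 7 rises and 2 falls of 12 (Alpi 5.08, Fabp6 4.49; 8.16 to 8.25 against 9.32 to 9.35). Leukocyte markers rose in 10 of 11 genes of B and plasma cells (9.0 to 9.05 against 9.99 to 10.04), 7 of 8 of T cells (6.68 to 6.73 against 7.51 to 7.54) and 9 of 11 of macrophages and neutrophils (7.89 to 7.91 against 8.96 to 8.99). All 9 smooth muscle genes fell (Des -0.69, Synpo2 -0.62; 12.26 to 12.27 against 11.76 to 11.80), so RNA of the muscle layers was on the arrays although the labels name epithelium as the source. Neuron and glia genes had 5 falls and 1 rise of 10 (Snap25 -0.50, Vip -0.46; 7.82 to 7.87 against 7.61 to 7.70).

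Markers from outside the colon mucosa also differed. Pancreatic acinar genes rose in 8 of 9 cases (Cela2a 7.40, Cpb1 7.24; 7.17 to 7.26 against 12 to 12.04), and squamous epithelial genes fell in 11 of 15 (Krt6b -3.19, Krt10 -3.15; 8.41 to 8.56 against 7.10 to 7.20). The part of each of these cell types in the changes of the glycosyltransferase genes was not tested. The Y-linked Eif2s3y (3.84 to 4.31 on control and 8.22 to 8.49 on deficient arrays) and Kdm5d rose, and Xist was high in both groups (12.81 to 12.88 and 11.99 to 12.06), so that each deficient array carried RNA of both kinds. The sex of the mice cannot be told apart from the genotype for any member. By their brightest probe sets in whole colon RNA, Hdac1 fell by 1.30 on the log2 scale and Hdac2 did not pass (0.046). The study's text reports both proteins depleted in enriched IEC by Western blot. In tissue sections it describes HDAC1 as undetectable in the epithelium and HDAC2 as patchy, with most epithelial cells negative. The median SD over 3 arrays was 0.048 in control and 0.051 in deficient colon for the members, so that small differences passed. The source names of the labels give 1 mouse for each array, but with Y-linked and Xist RNA on the same arrays it is not settled that each deficient array holds 1 mouse, and whether RNA was pooled is not stated. The p-values set each difference against the spread between these arrays, which may not be the spread between single mice.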

How the data were processed

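Total RNA of colon from 3 control and 3 HDAC1/2 IEC-deficient mice was hybridized to Affymetrix GeneChip mouse arrays. Per probe set the table deposited holds 1 log2 signal for each array, which the authors background-corrected and normalized by RMA in Flexarray. Groups came from the sample titles and the age from the study's text. No batch or scan date is given in the sources used here.

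Of 45101 rows, 64 array controls were left out and the other 45037 probe sets were tested by limma (version 3.58.1, under R 4.3.3) with lmFit, eBayes and no covariate, with Benjamini-Hochberg adjustment over all of them. Platform annotation names 34945 probe sets by 1 symbol, 932 by several and 9160 by none, and a probe set with several, such as that of Ccdc24 and B4galt2, was not used. All 87 members matched a RefSeq symbol. Standard errors and SDs are over 3 arrays per group, whose number limits the precision. An exact permutation test of 3 against 3 arrays cannot go below p = 0.1.

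Members, roles and lists were chosen with earlier results of these data known, and the lists were described by counts and medians only. Named genes were the 4 largest changes of each role, every member past a 2-fold change in any probe set, a set of enzymes taken by role whatever their values, members whose probe sets disagreed, and the 2 largest changes of each other list. Others (among them Galnt2, Galnt5, Galnt7, Galnt10, the B3gnt and St3gal genes that did not pass, B3galt6, Fut7, St8sia1, Gne, Slc35a1, Muc2, Muc3, Muc13 and Xist) were chosen after their values were seen. The same holds for St6gal2, Spdef, Zg16, Agr2, Krt20, Car1, Car2, Car4 and Aqp8. Promoter windows were searched on both strands for the GC box. Alternatives were the methods' Welch test with and without adjustment, quantile normalization again, centring, a filter on dim probe sets, eBayes with trend and robust settings, no probe sets of shared sequence, a gene's probe sets averaged, a replicate block and leaving out each array. The fit was tested on simulated data. Figures were drawn with matplotlib 3.10.9.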

Additional observations from a re-analysis of the deposited data

How the results depend on the processing

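The counts of 17 members that rose and 36 that fell stayed at 16 to 19 and 34 to 37 under 8 of the 9 alternatives that keep all arrays, and the methods' Welch test with Benjamini-Hochberg adjustment gave 13 and 32. Of the 53 members that rose or fell, 51 were measured under every alternative, and 41 of these kept their call under all but that test; the other 2, St6gal2 and St8sia1, were left out by the filter on dim probe sets. The adjusted Welch test lost 8 calls (B3gnt9, B4galnt4, B4galt7, Galnt15, Mgat2, St6gal2, St8sia1 and St8sia3). Without adjustment it lost that of Mgat2. With each gene's probe sets averaged, 3 members and not 5 fell more than 2-fold, as Fut4 and Mgat4a came below 2-fold. C1galt1 then turned from -0.31 to 0.0069 (limma adjusted p = 0.878), Fut8 from -0.13 to 0.0057 (adjusted p = 0.914) and St6galnac4 from -0.62 to 0.027 (adjusted p = 0.581), each by the averaging of opposed probe sets, and C1galt1c1, Galnt1 and Gcnt2 no longer passed. Leaving out each array in turn gave 15 to 17 rises, 33 to 35 falls, 1 to 2 rises of more than 2-fold and 5 to 5 falls of more than 2-fold. Without control replicate 3 the rises past 2-fold were 2, since St3gal1 came to 1.01, and without HDAC1/2 deficient replicate 2 St8sia5 took the place of B3gnt7 among the falls. The calls lost in these fits were those of Fut8, St8sia3, B3gnt9, B4galt7, Mgat2 and C1galt1c1. With the replicate number as a block (replicate block) 17 members rose and 34 fell, the calls of B3gnt9 and Fut8 being lost. Arrays with the same number deviated together at correlations of -0.026 to 0.096. Arrays of unlike number were not compared in this way, so these values cannot settle whether the number stands for a pairing. Dim probe sets, where RMA compresses differences, limit 19 of the members and the deficient values of St3gal4.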
